A study of Homo sapiens with 42 samples.

Results

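OCI-AML3 is a human acute myeloid leukaemia (AML) line known for a frameshift in NPM1 that moves the protein from the nucleolus to the cytoplasm, and for a mutation in DNMT3A. Its 3 libraries from cells that received only the solvent DMSO were set against the 12 DMSO libraries of KG-1, MOLM-13, MOLM-14 and SKM-1, 3 of each line, out of 42 labelled libraries in the series. The rule takes these columns by their line and treatment and uses every gene, so that no measured value chose the members. The series treated AML lines with decitabine, an analogue of deoxycytidine that binds and depletes the DNA methyltransferases (100 nM on 3 consecutive days), or with DMSO, and took RNA at 72 hours. The labels give all of these lines the genotype WT, and every line compared here stands for 1 patient's leukaemia. KG-1 is known as a CD34-positive, progenitor-like line, SKM-1 as a line from a leukaemia that followed a myelodysplastic syndrome, and MOLM-13 and MOLM-14 as sister lines of 1 patient with a fusion of KMT2A to MLLT3. The NPM1 and DNMT3A mutations, the patient and all else that sets OCI-AML3 apart cannot be told apart in this design. None of these mutations can be read from the values analysed here.

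Leukaemias with cytoplasmic NPM1 are known for high expression of HOXA and HOXB genes and of the cofactor MEIS1, for low CD34 and often for a monocytic look, and they depend on the menin and KMT2A complex. DNMT3A places methyl groups on cytosines of CG dinucleotides, and decitabine lowers that methylation. HOX genes encode the homeodomain transcription factors that set position along the body axis and are also used by blood progenitors.

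The values are estimated counts per gene that the authors had normalised for depth, here called normalised counts, and they were compared as log2(value + 1). The comparison was OCI-AML3 minus the mean of the 4 other lines, and a gene was called at a Benjamini-Hochberg adjusted p below 0.05 in limma. Because such a mean can rest on 1 line, a called gene was also marked as apart where all 3 OCI-AML3 libraries lay above, or all below, each of the 12 others. Differences on this scale understate those of genes near 0, and where the other lines were listed at 0 they depend on the added 1 and are not folds. Per the labels, cells were plated as duplicate or triplicate wells, so the p-values measure the spread between libraries of a line, which may be technical, and not between patients.

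Depth was uneven. The OCI-AML3 libraries held an estimated 12.6M, 2.67M and 19.3M reads in genes (M stands for 1e+06), against 2.02M to 31.2M in KG-1 and MOLM-14 and 55.5M to 75.1M in MOLM-13 and SKM-1. Replicate 2 of OCI-AML3, KG-1 and MOLM-14 was shallow, and 1 read there was worth 6.64 to 10.1 units of value, so that single values under about 10 in these libraries rest on 1 read. Replicates of OCI-AML3 correlated across genes with r of 0.93 to 0.969 (genes are not independent replicates). The line means of OCI-AML3 correlated most with those of MOLM-14 (r = 0.88) and least with those of SKM-1 (r = 0.807). Of 7 defining markers of leukaemic myeloid cells, 6 were within or above the range of the other lines. The exception was MPO, myeloperoxidase, at 37.4, 326 and 13.7 in OCI-AML3 against 123 to 42230, with replicates 1 and 3 below every other library. PTPRC, the pan-leukocyte phosphatase CD45, was at 12150, 9610 and 10700 in OCI-AML3, SPI1, the myeloid transcription factor PU.1, at 1134, 1700 and 1220, and LYZ, lysozyme, at 4383, 3986 and 3992.

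Of 20217 genes tested, 5460 were higher in OCI-AML3 (27%) and 4969 were lower (24.6%). Apart from all 12 other libraries were 1569 higher genes (7.76%) and 1129 lower genes (5.58%). Without the 3 shallow libraries these counts were 2250 and 1791. The median log2 difference of all genes was 0.07. With so many genes called, the counts of each gene list below are to be read against these shares. The median differences of 15 of the 29 lists changed sign under at least 1 alternative processing or choice of lines and give no stable direction. These were the HOXA cluster, the HOX cofactors, DNA methylation, MHC class I, BCL2 family, p53, retinoic acid, imprinted and adhesion genes, and the markers of monocytes, granulocytes, megakaryocytes, erythroid, lymphoid and epithelial cells.

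The genes with the widest gap between OCI-AML3 and the nearest other line were switched on in OCI-AML3 and close to 0 elsewhere. TIMP3, a secreted inhibitor of matrix metalloproteinases on chromosome 22 (chr22:32801701-32863043, GRCh38), had normalised counts of 12810, 12040 and 12180 in OCI-AML3, against 0 to 22.6 (median 11.4) in the 12 other libraries (log2 difference 10.69 ± 0.23 (SE), adjusted p = 1.67e-12). Its 3 OCI-AML3 libraries were nearly equal and no other library came near them. MKX, the homeobox factor Mohawk known from tendon, stood at 4628, 4336 and 4490 in OCI-AML3, against 0 to 19.8 (median 2.16) in the 12 other libraries (log2 difference 10.41 ± 0.41 (SE), adjusted p = 3.41e-10). LHX2, a LIM-homeobox factor of the developing brain and of hair follicle stem cells, stood at 703, 723 and 695 in OCI-AML3, against 0 to 4.71 (median 0.165) in the 12 other libraries (log2 difference 8.82 ± 0.46 (SE), adjusted p = 4.81e-09). These homeobox genes lie outside the HOX clusters.

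The other higher genes of this group were of mixed function. RNASE1, a secreted ribonuclease, stood at 565, 757 and 689 in OCI-AML3, against 0 to 5.45 (median 0.178) in the 12 other libraries. TNFRSF11A, the receptor RANK of osteoclast precursors and dendritic cells, stood at 752, 504 and 614 in OCI-AML3, against 0 to 16.0 (median 1.84) in the 12 other libraries (log2 difference 7.60 ± 0.81 (SE), adjusted p = 4.51e-06). NGFR, the low-affinity neurotrophin receptor, stood at 187, 279.6 and 254 in OCI-AML3, against 0 to 3.86 (median 0.822) in the 12 other libraries. That the groups do not overlap in these genes follows from the rule that named them. Of the 15 higher genes, only TIMP3, TNFRSF11A and FAM135B reached 10 in 3 or more of the 12 other libraries. The rest were tested only because of their values in OCI-AML3. G0S2, an inhibitor of the lipase that starts triglyceride breakdown, stood at 359.9, 559.7 and 401 in OCI-AML3, against 0 to 3.08 (median 0.297) in the 12 other libraries. PPFIA2, a synaptic scaffold protein, was at 1450 to 2234 in OCI-AML3 and at most 16.4 elsewhere. KCND2, a voltage-gated potassium channel, was at 934 to 1005 in OCI-AML3 and at most 9.90 elsewhere. ANO4, FAM135B, RGL3, GCOM1 and the histone gene H4C6, whose reads may be shared with near-identical H4 copies, completed the higher genes together with HOXB8. Among the 15 higher genes the highest single value in the 12 other libraries was 27.4 (FAM135B, MOLM-14). The average of KG-1 and MOLM-14 exceeded that of MOLM-13 and SKM-1 for 12 of these 15 genes, and the part that the shallower libraries of KG-1 and MOLM-14 play in such low values was not tested.

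Genes of the opposite kind were expressed in all 4 other lines and near 0 in OCI-AML3. SNX19, a sorting nexin of endosomal membranes (chr11:130875436-130916509), stood at 4.84, 0 and 7.19 in OCI-AML3, against 738 to 1775 (median 1420) in the 12 other libraries (log2 difference -8.44 ± 0.42 (SE), adjusted p = 3.41e-09). AGAP1, a regulator of the small GTPase Arf, stood at 1.07, 0 and 0.993 in OCI-AML3, against 216 to 961 (median 569.9) in the 12 other libraries (log2 difference -8.33 ± 0.19 (SE), adjusted p = 2.19e-12). NFATC2, the calcium-dependent transcription factor, stood at 11.5, 0 and 10.1 in OCI-AML3, against 699 to 2389 (median 1380) in the 12 other libraries (log2 difference -8.05 ± 0.53 (SE), adjusted p = 4.29e-08). In each of these genes replicate 2 of OCI-AML3 was at 0 and the other replicates were at or under 11.5. BCL11A, a zinc finger repressor needed for lymphoid development and for the silencing of fetal globin, stood at 27.6, 26.3 and 30.03 in OCI-AML3, against 859 to 5118 (median 2601) in the 12 other libraries (log2 difference -6.35 ± 0.094 (SE), adjusted p = 9.14e-14). SNRPN, the imprinted gene of the Prader-Willi region, stood at 12.4, 6.02 and 8.95 in OCI-AML3, against 433 to 1605 (median 956) in the 12 other libraries (log2 difference -6.44 ± 0.15 (SE), adjusted p = 3e-12). GBP2, a guanylate-binding protein that interferon gamma induces, stood at 8.60, 3.14 and 1.70 in OCI-AML3, against 84.3 to 308 (median 114) in the 12 other libraries (log2 difference -4.89 ± 0.28 (SE), adjusted p = 1.37e-08).

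The other lower genes were TES (testin, of focal adhesions), SLC27A2 (a fatty acid transporter and acyl-CoA synthetase), GALNT3 (an enzyme of mucin-type O-glycosylation), SYTL1 (a Rab27 effector of vesicle transport), ARRDC4, BEND6, EIF4E3, GPR27 and PROK2. Their log2 differences ran from -7.27 for GPR27 to -4.89 for SYTL1. The last 3 are neighbours on chromosome 3. EIF4E3, a member of the cap-binding eIF4E family (chr3:71675416-71754773), overlaps the start of GPR27, an orphan receptor (chr3:71754050-71756496), on the opposite strand, and PROK2, which encodes a secreted peptide, follows at chr3:71771656-71785206. EIF4E3 stood at 14.2, 12.3 and 13.7 in OCI-AML3, against 439 to 1104 (median 692) in the 12 other libraries, GPR27 at 0 to 6.54 against 206 to 751, and PROK2 at 0 to 19.4 against 275 to 1429. Within 500 kb of this stretch of 109.8 kb, 5 protein-coding genes were tested. The other tested genes there were FOXP1 and AC097634.4, which overlaps FOXP1, EIF4E3 and the start of GPR27. FOXP1 was lower but not apart, at 1589 to 1782 in OCI-AML3 against 1549 to 2707 in the other lines (log2 difference -0.25, adjusted p = 0.00232). AC097634.4 was low in every line, at 0 to 5.73 in OCI-AML3 against 0 to 55.5, and was not called (log2 difference -1.62, adjusted p = 0.137). The strand setting of the authors' counting is not stated. Reads in the overlap of GPR27 with EIF4E3 or AC097634.4 therefore cannot be assigned to one of them with certainty. Reads where AC097634.4 and EIF4E3 overlap on the same strand share this limit.

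**Figure D1:**
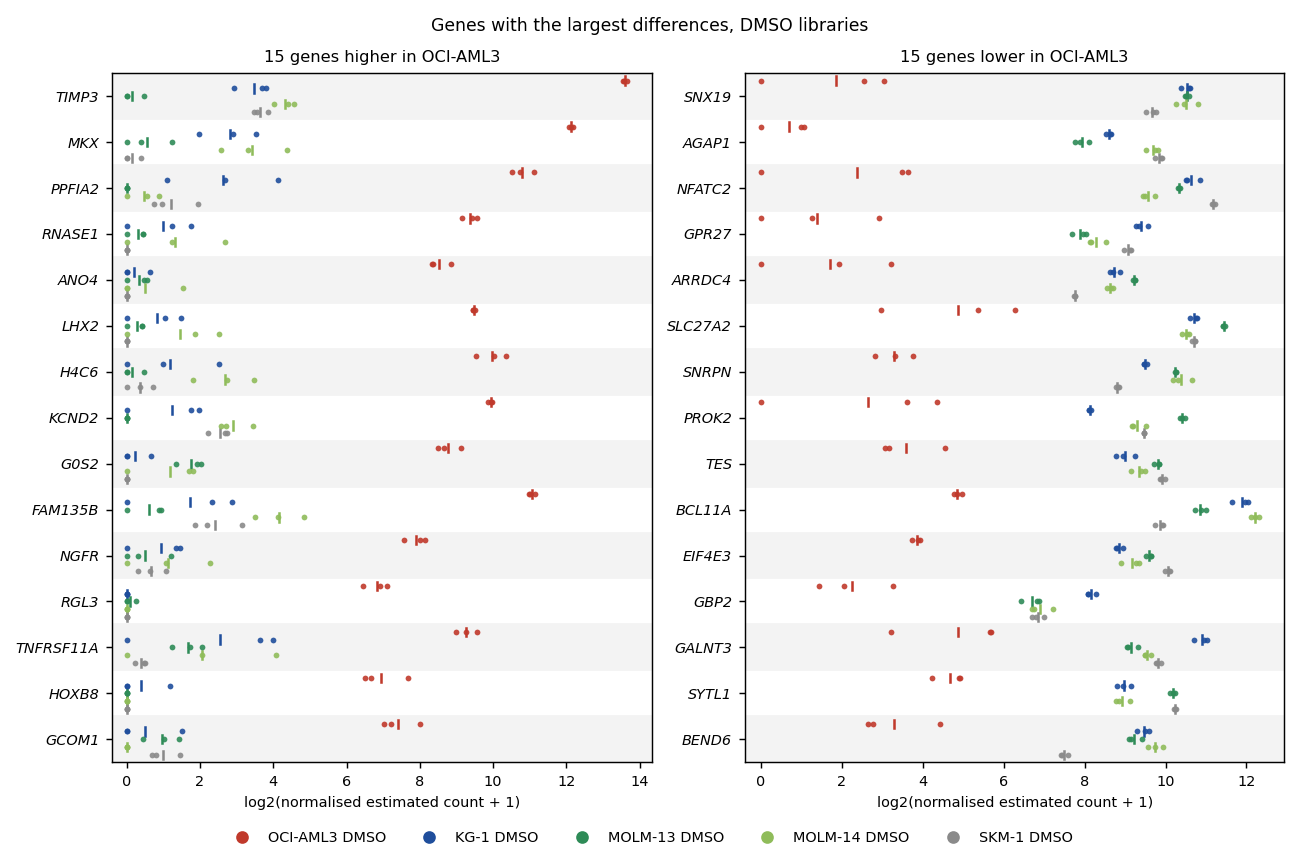
Values of the 15 higher and 15 lower genes in the 15 DMSO libraries, as log2(normalised count + 1) on the horizontal axis, with 3 points and a bar for the mean for each line, OCI-AML3 uppermost in each row. The OCI-AML3 points of TIMP3 lie at 12040 to 12810 on the untransformed scale and no other library exceeds 22.6, and the points of SNX19 show the mirror image.

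These genes were also looked up after decitabine in OCI-AML3, a comparison that uses the same DMSO libraries and in which 746 genes rose (3.69%) and 361 fell (1.79%). Of the 15 lower genes, 5 rose with decitabine. All 15 were picked for low values in these same DMSO libraries, which by itself favours a rise. This count is therefore not to be read against the 3.69% of all genes. SNX19 rose to 19.8, 10.4 and 38.8 in treated OCI-AML3, against 4.84, 0 and 7.19 with DMSO (log2 difference 2.54, adjusted p = 0.00128). EIF4E3 rose to 36.9, 121 and 36.5, against 14.2, 12.3 and 13.7 with DMSO (log2 difference 1.95, adjusted p = 4.37e-05). BEND6, GBP2 and TES rose by 1.93, 1.83 and 1.32 on the log2 scale. None of these 5 genes reached, in any treated OCI-AML3 library, the lowest DMSO value of the other lines. SNRPN fell further, to 4.45, 0 and 6.52 (log2 difference -1.50, adjusted p = 0.0269). Of the 15 higher genes, HOXB8 fell to 64.5, 15.9 and 55.3 (log2 difference -1.64, adjusted p = 0.0378), and the other 14 were not called. HOXB8 had been picked for high values in the same DMSO libraries, which by itself favours a fall.

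Promoter sequence was compared because methylation acts on CG dinucleotides. The RefSeq windows (GRCh38.p14) from 250 bases before to 50 after a gene's start were at hand for 11316 of the 14351 protein-coding genes tested, and their median was 25 CG. It was 23 CG for the genes higher and apart (881 of 1119 with a window) and 25 CG for those lower and apart (817 of 1024). Windows with fewer than 5 CG made up 8.5% and 4% of these sets, against 5.9% of all genes. Among the 15 higher and 15 lower genes, 11 each had a window, with a median of 24 CG in both. The 250 bases before the start are shown for TIMP3, high in OCI-AML3 alone, and for BEND6, lowest in OCI-AML3, with each CG in capitals, 26 in the first and 43 in the second.
TIMP3, chr22:32801455-32801704, plus strand: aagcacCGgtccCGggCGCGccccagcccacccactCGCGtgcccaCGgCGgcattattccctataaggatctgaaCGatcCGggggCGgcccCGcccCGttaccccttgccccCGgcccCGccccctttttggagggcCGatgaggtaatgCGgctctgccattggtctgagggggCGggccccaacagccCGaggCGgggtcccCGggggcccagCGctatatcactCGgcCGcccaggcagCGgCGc
BEND6, chr6:56954857-56955106, plus strand: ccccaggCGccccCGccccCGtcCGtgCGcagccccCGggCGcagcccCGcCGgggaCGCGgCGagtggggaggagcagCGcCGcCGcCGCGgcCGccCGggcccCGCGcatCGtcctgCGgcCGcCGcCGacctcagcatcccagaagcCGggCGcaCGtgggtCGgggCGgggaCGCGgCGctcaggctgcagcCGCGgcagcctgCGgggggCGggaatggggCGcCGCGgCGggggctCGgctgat
Both promoters hold more CG than the median of 20 in these 250 bases over all genes, and more than is usual for the named genes, whose medians were 18 for the 11 higher and 17 for the 11 lower genes with a window. The count describes the sequence and not its methylation, which was not measured here.

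HOX genes of the B cluster were higher in OCI-AML3 throughout. All 8 tested of the 10 HOXB genes were higher, 5 of them apart, with a median log2 difference of 4.87 against 0.07 for all genes. The other 2, HOXB1 and HOXB5, did not reach a value of 10 in 3 libraries. HOXB8 and HOXB13 stayed under 10 in every other library. They passed this filter through OCI-AML3 alone, so that their higher values had to follow. HOXB8 had normalised counts of 89.4, 204 and 100.2 in OCI-AML3, against 0 to 1.25 (median 0) in the 12 other libraries, and HOXB6 of 259, 272 and 179 in OCI-AML3, against 0 to 14.9 (median 0.319) in the 12 other libraries (log2 difference 6.76 ± 0.30 (SE), adjusted p = 9.58e-10). HOXB3 stood at 491, 774 and 537 in OCI-AML3, against 0 to 115 (median 14.4) in the 12 other libraries (log2 difference 5.78 ± 0.63 (SE), adjusted p = 5.48e-06). Without the 3 shallow libraries 6 HOXB genes were tested and all 6 were higher, 3 of them apart. The OCI-AML3 libraries left in that setting are too few to pass a gene through the filter alone. HOXB8 was detected in 1 of the 12 other libraries, while HOXB3 was also found in SKM-1 at 108 to 115.

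Some HOXB genes were shared with 1 other line. HOXB4, used to expand blood stem cells in culture, was at 178, 173 and 218 in OCI-AML3 and at 166, 178 and 187 in SKM-1, with at most 6.64 in the remaining lines. The pairwise difference from SKM-1 was 0.091 (adjusted p = 0.926). HOXB2 was at 128, 203 and 161 in OCI-AML3 and at 429.8, 511 and 390.5 in KG-1. HOXB9 was at 42.9, 34.5 and 27.1 in OCI-AML3 and at 42.8, 10.1 and 23.7 in MOLM-14. HOXB7 stood at 115, 86.8 and 123 in OCI-AML3, against 0.331 to 57.2 (median 3.96) in the 12 other libraries and HOXB13, at the far end of the cluster, at 19.4, 34.5 and 29.9 in OCI-AML3, against 0 to 0.595 (median 0) in the 12 other libraries. Against single lines, 7 of 8 HOXB genes were higher than in KG-1 (22.8% of all genes), 8 than in MOLM-13 (27.7%), 7 than in MOLM-14 (21%) and 7 than in SKM-1 (26.2%). The 8 genes include HOXB8 and HOXB13, which were tested only through their values in OCI-AML3.

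The HOXA cluster was split by position. The genes at its 5′ end were higher in OCI-AML3 and apart: HOXA13, HOXA11 and HOXA10. HOXA13 stood at 4195, 3784 and 4027 in OCI-AML3, against 0.264 to 3198 (median 181) in the 12 other libraries (log2 difference 5.97 ± 0.14 (SE), adjusted p = 3e-12). HOXA11 stood at 429, 424 and 446 in OCI-AML3, against 0 to 375 (median 108) in the 12 other libraries (log2 difference 4.30 ± 0.30 (SE), adjusted p = 6.93e-08). HOXA10 stood at 1743, 1600 and 1603 in OCI-AML3, against 466 to 1229 (median 535) in the 12 other libraries (log2 difference 1.38 ± 0.079 (SE), adjusted p = 1.07e-08). MOLM-14 came closest in all 3, with HOXA13 at 2895, 2787 and 3198, while its sister line MOLM-13 had 364, 377 and 349.9. HOXA9, the HOX gene most often linked to AML, was lower in OCI-AML3 than the mean of the others, at 1043, 1019 and 1213 against 997 to 2617 (log2 difference -0.59 ± 0.08 (SE), adjusted p = 3.78e-05), and overlapped SKM-1 and MOLM-14.

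HOXA7 was the HOXA gene that was lower and apart, at 34.0, 40.3 and 49.7 in OCI-AML3, against 216 to 393 (median 319) in the 12 other libraries (log2 difference -2.89 ± 0.12 (SE), adjusted p = 6.01e-10). HOXA2, HOXA4, HOXA5 and HOXA6 were also lower, with differences of -1.83, -0.80, -0.53 and -0.55, and overlapped other lines. HOXA5 was at 54.4 to 70.2 in OCI-AML3, above SKM-1 at 16.0 to 22.2, and HOXA6 was at 33.1 to 41.9 in OCI-AML3, above SKM-1 at 9.56 to 13.2. HOXA3 (-0.10, adjusted p = 0.734) was not called. In all, 3 HOXA genes were higher and 6 lower of 11, with a median of -0.55, and without replicate 3 of OCI-AML3 the lower count was 3. The calls of HOXA2, HOXA4, HOXA5 and HOXA6 were each lost when 1 OCI-AML3 library was left out: HOXA2 without replicate 1 (-0.96), HOXA4 (-0.54) and HOXA5 (-0.43) without replicate 3, and HOXA6 without any of them (-0.45 to -0.62) or any of 7 libraries of the other lines. Of 18 HOXC and HOXD genes, 4 were tested, each of which passed the filter on low values through 1 line (3 through MOLM-14 and 1 through SKM-1), so that their lower values had to follow and say nothing of the remaining lines. HOXC4 was at 241 to 298 in MOLM-14 and near 0 in OCI-AML3 and the other lines. The genes not tested did not exceed 18.4 in any DMSO library.

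MEIS1, which binds DNA together with HOX proteins, was not higher than in most lines. It stood at 1210, 1903 and 1135 in OCI-AML3, against 3597, 4606 and 2804 in KG-1, 2072, 1908 and 2279 in MOLM-13, 2194, 2959 and 1689 in MOLM-14 and 11.3, 6.15 and 3.83 in SKM-1. Its call as higher (log2 difference 1.21 ± 0.25 (SE), adjusted p = 0.00124) rests on SKM-1: without that line the difference was -0.89 (adjusted p = 0.00401). PBX3, another HOX partner, was lower, at 429, 352 and 378 in OCI-AML3, against 414 to 2355 (median 1304) in the 12 other libraries (log2 difference -1.48 ± 0.14 (SE), adjusted p = 1.53e-06), and overlapped SKM-1. MEIS2 was lower (-1.16). MEIS3 was higher and apart, at 51.1, 59.5 and 39.0 in OCI-AML3, against 0 to 8.96 (median 1.29) in the 12 other libraries. It passed the filter on low values through OCI-AML3 alone, so that its higher values had to follow. Of 9 cofactors, 4 were higher, MEIS3 among them, and 3 lower. Their median was 1.21, but 0.19 without the 3 shallow libraries and -0.085 without SKM-1, and 1 or 2 were higher without any 1 OCI-AML3 library or without the 3 shallow ones.

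**Figure D2:**
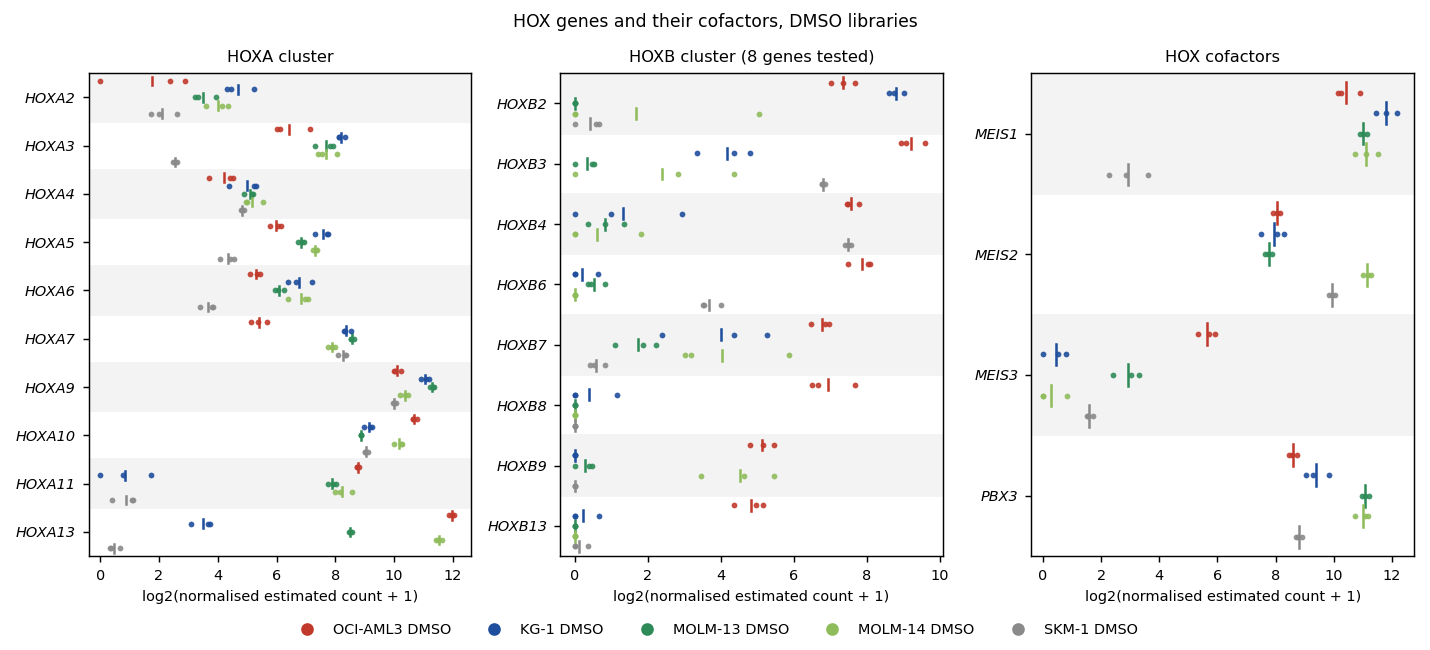
The HOXA genes, HOXB genes and HOX cofactors described here in the 15 DMSO libraries, as log2(normalised count + 1) on the horizontal axis, with 3 points and a bar for the mean for each line, OCI-AML3 uppermost in each row. OCI-AML3 lies to the right of the other lines in HOXA10, HOXA11 and HOXA13 and in 5 of 8 HOXB genes, and to their left in HOXA7.

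The genes named in the known mutations were expressed. NPM1 itself, whose product shuttles between nucleolus and cytoplasm, was lower and apart in OCI-AML3, at 32070, 32530 and 30210 in OCI-AML3, against 40130 to 69150 (median 46420) in the 12 other libraries (log2 difference -0.59 ± 0.08 (SE), adjusted p = 4.35e-05). These values count the transcript as a whole and do not separate the alleles. In the list of NPM1 and its partners in nucleolus and export, which counts NPM1 itself, 13 genes were tested. Of these, 8 were lower (24.6% of all genes) and 1 higher (27%), with a median of -0.47. Under quantile normalization 6 were lower, with a median of -0.22. MYC was lower and apart, at 2553, 2883 and 3079 in OCI-AML3, against 5541 to 11510 (median 9124) in the 12 other libraries (log2 difference -1.59 ± 0.087 (SE), adjusted p = 7.24e-09). RAN, the GTPase of nuclear transport, was lower (-0.49, adjusted p = 1.93e-05) and NCL, nucleolin, was lower (-0.47, adjusted p = 0.000993). NPM2, a paralogue of NPM1, was near 0 in OCI-AML3, at 0 to 3.77 against 12.1 to 64.9. XPO1, the exporter that carries the mutant NPM1 protein out of the nucleus, was the member that was higher, at 9682, 8796 and 10360 in OCI-AML3, against 3208 to 8446 (median 6817) in the 12 other libraries (log2 difference 0.58 ± 0.11 (SE), adjusted p = 0.000708).

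DNMT3A was higher and apart in OCI-AML3, at 1855, 2284 and 2525 in OCI-AML3, against 337 to 1589 (median 991) in the 12 other libraries (log2 difference 1.27 ± 0.16 (SE), adjusted p = 2.24e-05). Its relative DNMT3B was lower than the mean of the others, at 256 to 407, and overlapped MOLM-13, at 266 to 309 (log2 difference -1.27 ± 0.12 (SE), adjusted p = 1.51e-06). DNMT1, the maintenance methyltransferase, was at 5129 to 6901 in OCI-AML3 and 3715 to 9881 in the others and was not called (0.28, adjusted p = 0.211), but it was called without replicate 2 of KG-1 (0.36). IDH1, the isocitrate dehydrogenase mutated in some leukaemias, was higher and apart, at 3670, 3538 and 3902 in OCI-AML3, against 1133 to 2796 (median 2119) in the 12 other libraries (log2 difference 0.91 ± 0.071 (SE), adjusted p = 2.13e-07). MBD4, a glycosylase at methylated CG sites, was lower and apart (-0.42). DNMT3L, a cofactor of the de novo enzymes, had the largest difference of the list (-1.42) but was found in SKM-1 alone. It was thus tested only through SKM-1, and its lower values say nothing of the remaining lines. Of 17 genes of DNA methylation, 3 were higher and 5 lower, with a median of -0.027, near the background, and 6 were higher without the 3 shallow libraries.

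Of 16 genes of the menin, KMT2A and DOT1L machinery, 3 were higher and 6 lower, with a median of -0.16, and 5 were higher without the 3 shallow libraries. MLLT3, a subunit of the super elongation complex, was lower and apart, at 166, 90.9 and 222 in OCI-AML3, against 435 to 5607 (median 632) in the 12 other libraries (log2 difference -2.81 ± 0.21 (SE), adjusted p = 1.43e-07), and KG-1 had the highest values. In MOLM-13 and MOLM-14, reads of the fused part of MLLT3 cannot be told apart from those of the unfused gene. AFF4, the scaffold of the same complex, was higher and apart (log2 difference 0.88 ± 0.17 (SE), adjusted p = 0.000821).

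Genes of interferon response were high in OCI-AML3 without any treatment. Type I interferons act through the receptor IFNAR and the factor ISGF3, which binds a short repeat of GAAA in target promoters. Of 35 such target genes tested, 31 were higher (background 27%) and 2 lower (24.6%), and 24 were higher and apart (7.76%), with a median log2 difference of 2.71. The list held 36 symbols, of which DDX58 and RIGI name the same gene. OAS2, which makes the oligoadenylates that activate RNase L, had normalised counts of 4761, 3605 and 4763 in OCI-AML3, against 0 to 218 (median 27.1) in the 12 other libraries (log2 difference 7.76 ± 0.48 (SE), adjusted p = 2.53e-08). MX1, a GTPase that blocks influenza virus, stood at 4766, 5152 and 5111 in OCI-AML3, against 42.1 to 274 (median 76.1) in the 12 other libraries (log2 difference 5.76 ± 0.12 (SE), adjusted p = 1.11e-12), and its relative MX2 at 2532, 3040 and 2835 in OCI-AML3, against 14.0 to 189 (median 90.8) in the 12 other libraries. IFI44L stood at 3530, 2030 and 3308 in OCI-AML3, against 1.18 to 51.7 (median 12.8) in the 12 other libraries (log2 difference 7.83 ± 0.46 (SE), adjusted p = 1.35e-08). In these 4 genes the lowest OCI-AML3 library was far above the highest of the other 12.

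The same held for further members. OAS1 stood at 1561, 1552 and 1444 in OCI-AML3, against 2.80 to 90.8 (median 32.6) in the 12 other libraries and OAS3 at 2513, 2421 and 2420 in OCI-AML3, against 36.9 to 194 (median 70.5) in the 12 other libraries. IFI6, a mitochondrial protein that counters cell death, stood at 1596, 2140 and 1977 in OCI-AML3, against 12.6 to 139.5 (median 91.3) in the 12 other libraries (log2 difference 4.83 ± 0.17 (SE), adjusted p = 1.4e-10). IFIT1, which binds viral RNA caps, stood at 841, 767 and 826 in OCI-AML3, against 10.8 to 255 (median 45.1) in the 12 other libraries (log2 difference 4.04 ± 0.16 (SE), adjusted p = 2.69e-10). IFI27 stood at 248, 377 and 238 in OCI-AML3, against 0 to 25.9 (median 3.54) in the 12 other libraries. Among the factors of the pathway, IRF9 stood at 512, 545 and 435 in OCI-AML3, against 7.60 to 173 (median 68.2) in the 12 other libraries (log2 difference 3.22 ± 0.28 (SE), adjusted p = 5.65e-07). STAT2 stood at 868, 676 and 872 in OCI-AML3, against 131 to 625 (median 361) in the 12 other libraries (log2 difference 1.31 ± 0.18 (SE), adjusted p = 4.06e-05). IRF7, which amplifies the response, stood at 623, 531 and 684 in OCI-AML3, against 45.9 to 190.0 (median 83.5) in the 12 other libraries (log2 difference 2.83 ± 0.16 (SE), adjusted p = 8.39e-09).

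KG-1 shared part of the pattern. RSAD2, the antiviral enzyme viperin, was at 190.0, 150.4 and 279 in OCI-AML3 and at 3687, 3444 and 3461 in KG-1, and so was not called against the mean (0.041, adjusted p = 0.875). IFITM1 and IFITM2, membrane proteins that block virus entry, were lower in OCI-AML3 (-2.12 and -0.55), with the highest values in KG-1, and the call of IFITM1 was lost without replicate 2 of OCI-AML3 (-0.98). Against single lines, 26 of 35 genes were higher and 5 lower than in KG-1 (22.8% of all genes each), 31 were higher than in MOLM-13 (27.7%), 30 higher than in MOLM-14 (21%), and 31 higher and 2 lower than in SKM-1 (26.2% and 27.4%). After decitabine, 2 of the 35 genes rose and 2 fell in OCI-AML3, with a median of -0.062. The receptor chain IFNAR1 was at 1213 to 1334 in OCI-AML3 and 976 to 1884 elsewhere and was not called (-0.17, adjusted p = 0.127) but was lower without replicate 2 of MOLM-14 (-0.20). IFNGR1, a chain of the receptor for interferon gamma, was lower and apart, at 223, 309.7 and 304 in OCI-AML3, against 867 to 1568 (median 1082) in the 12 other libraries (log2 difference -2.02 ± 0.10 (SE), adjusted p = 4.33e-09).

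Many promoters of these genes hold the repeat that ISGF3 is known to bind. A pair of GAAA separated by any 2 bases, searched on both strands in the 250 bases before the start, was found in 18 of 26 tested list members with a RefSeq window (69.2%), in 12 of the 18 that were higher and apart, and in 404 of 11316 protein-coding genes (3.6%). A gene with several windows counted once if any held it, and matches may overlap. The promoters of 4 genes that were higher and apart are shown with the matches in capitals, as a pair of GAAA or, on the other strand, a pair of TTTC (GRCh38.p14, each read in the direction of its gene).
IFI6, chr1:27672193-27672442, minus strand: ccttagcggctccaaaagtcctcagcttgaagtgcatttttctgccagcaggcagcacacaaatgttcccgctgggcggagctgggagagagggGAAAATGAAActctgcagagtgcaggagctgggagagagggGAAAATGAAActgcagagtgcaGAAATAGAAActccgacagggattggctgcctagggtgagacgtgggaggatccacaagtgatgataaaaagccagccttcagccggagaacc
IFI44L, chr1:78620198-78620447, plus strand: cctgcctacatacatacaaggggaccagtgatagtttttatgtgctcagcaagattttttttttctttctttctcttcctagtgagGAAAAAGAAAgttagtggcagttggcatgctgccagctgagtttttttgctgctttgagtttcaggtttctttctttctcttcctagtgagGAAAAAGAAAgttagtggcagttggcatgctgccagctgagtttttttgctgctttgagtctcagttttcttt
IFIT1, chr10:89392373-89392622, plus strand: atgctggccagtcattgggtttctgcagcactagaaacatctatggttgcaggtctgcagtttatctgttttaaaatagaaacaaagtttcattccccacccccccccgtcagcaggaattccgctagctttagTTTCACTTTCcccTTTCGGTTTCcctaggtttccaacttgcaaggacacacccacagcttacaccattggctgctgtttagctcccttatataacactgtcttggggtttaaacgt
OAS3, chr12:112938224-112938473, plus strand: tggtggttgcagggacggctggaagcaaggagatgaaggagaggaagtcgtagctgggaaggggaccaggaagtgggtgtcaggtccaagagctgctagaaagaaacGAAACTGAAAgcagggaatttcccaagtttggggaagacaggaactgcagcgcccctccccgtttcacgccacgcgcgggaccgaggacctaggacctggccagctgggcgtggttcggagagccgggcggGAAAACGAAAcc
IFI6 had 3 matches, the first beginning 156 bases before the start, and IFI44L, IFIT1 and OAS3 had 2 each. A match describes the letters and not a bound site, and list members lower in OCI-AML3 held it too, such as IFITM1.

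**Figure D3:**
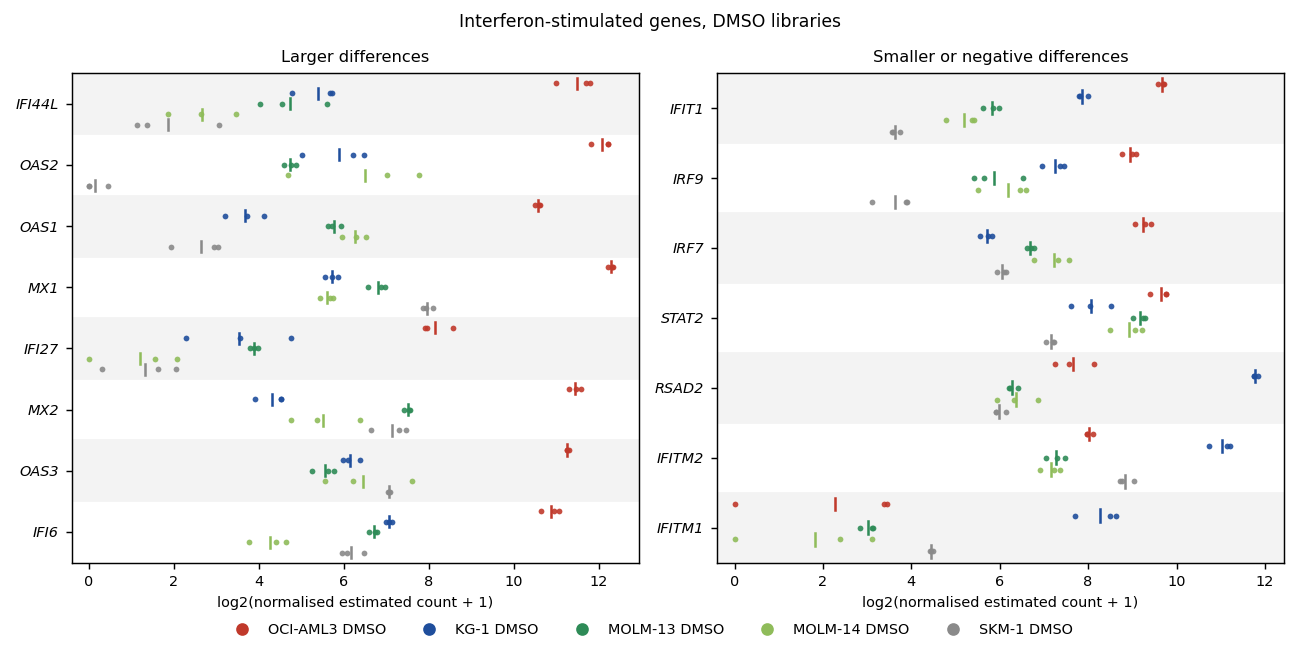
The interferon-stimulated genes described here in the 15 DMSO libraries, ordered by the log2 difference of OCI-AML3, with log2(normalised count + 1) on the horizontal axis and 3 points and a bar for the mean for each line, OCI-AML3 uppermost in each row. OCI-AML3 lies to the right of all other libraries in genes such as OAS2, MX1 and IFI44L, and KG-1 lies furthest right in RSAD2, IFITM1 and IFITM2.

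Genes of antigen presentation by MHC class II went the other way. Of 13 tested, 10 were lower in OCI-AML3 (24.6% of all genes), 5 of them apart (5.58%), and none was higher in limma, at the adjusted threshold or at an unadjusted p below 0.05, with a median of -3.11. Without the 3 shallow libraries 9 of 12 were lower, 8 of them apart. HLA-DRA, a chain of HLA-DR, was at 2.86, 13.3 and 9.65 in OCI-AML3, against 2182 to 2547 in KG-1, 77.2 to 96.2 in MOLM-13, 20.8 to 32.7 in MOLM-14 and 94.7 to 103 in SKM-1 (log2 difference -4.20 ± 0.29 (SE), adjusted p = 8.12e-08). HLA-DQB1 was at 0 to 1.57 against 13.3 to 664, and HLA-DRB1 at 0 to 12.2 against 20.1 to 1752. Reads of these genes can be shared with close paralogues. CD74, the invariant chain, was at 400.1, 559.5 and 441 in OCI-AML3, against 1080 to 4445 (median 1627) in the 12 other libraries (log2 difference -2.01 ± 0.11 (SE), adjusted p = 6.08e-09), and CIITA, the master regulator of class II genes, at 38.5, 19.6 and 39.4 in OCI-AML3, against 52.9 to 3602 (median 269) in the 12 other libraries (log2 difference -3.63 ± 0.44 (SE), adjusted p = 1.37e-05). KG-1 had by far the highest values. These 5 genes are the ones marked as apart, so all 3 OCI-AML3 libraries lie below every library of the other lines by choice.

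Class I genes were mixed, with 3 of 17 higher and 8 lower and a median of -0.17. HLA-C was lower than the mean, at 956 to 1717, but above KG-1 at 770.2 to 899.6 (log2 difference -1.80 ± 0.15 (SE), adjusted p = 3.34e-07). ERAP1, which trims peptides in the endoplasmic reticulum, was lower (-1.27), while the immunoproteasome subunit PSMB9 was higher (1.27) and overlapped SKM-1. HLA-G was higher (2.13) and overlapped MOLM-14.

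**Figure D4:**
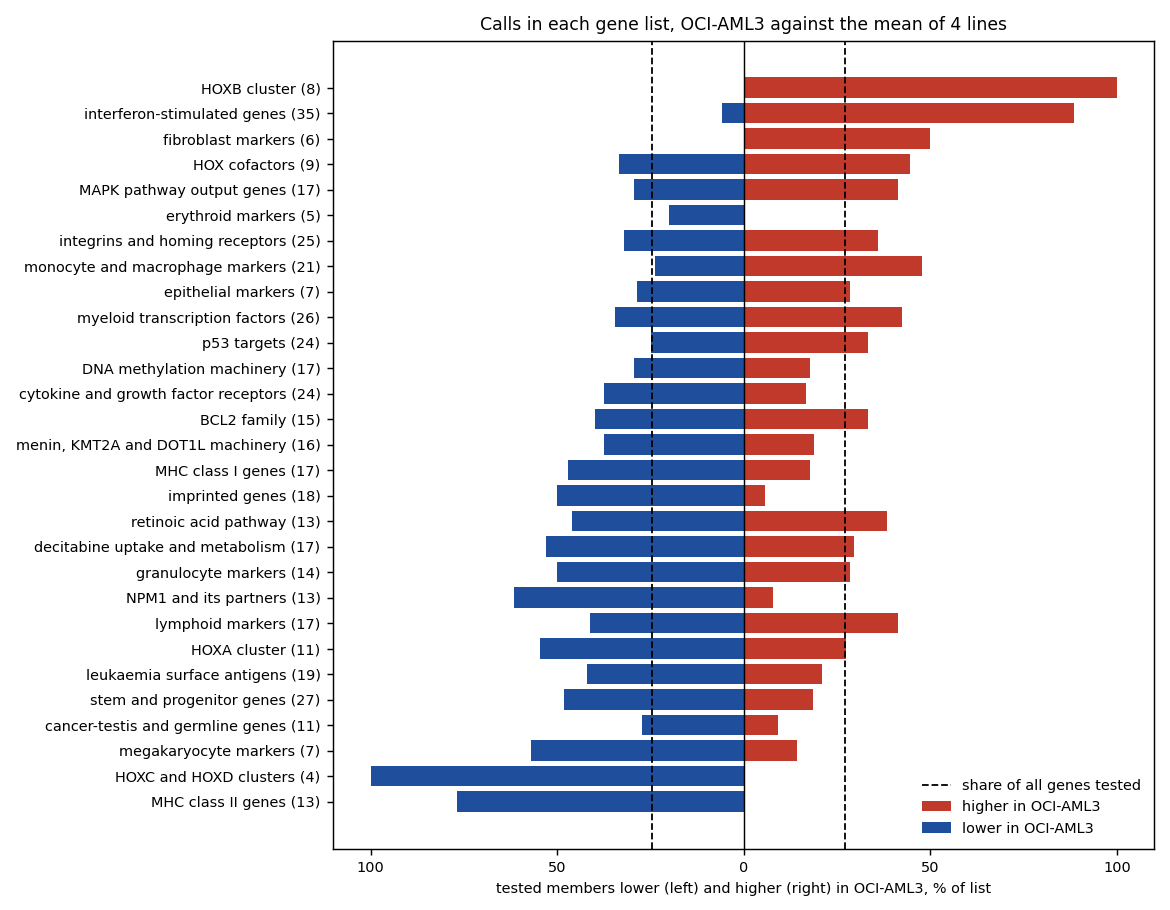
Share of the tested members of each of 29 gene lists called higher (right) or lower (left) in OCI-AML3, with the number tested in brackets and lists ordered by their median difference. Dashed lines mark the shares of all genes, 27% higher and 24.6% lower; the HOXB cluster and the interferon-stimulated genes reach furthest to the right, and the MHC class II genes far to the left. The 4 HOXC and HOXD genes also lie left, but each was tested only through its values in 1 other line. HOXB8 and HOXB13 of the HOXB cluster were tested only through their values in OCI-AML3. So were MEIS3 of the HOX cofactors and STRA6 of the retinoic acid genes. DNMT3L of the DNA methylation genes was tested only through SKM-1.

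Genes of stem and progenitor cells were lower than the mean of the other lines in 13 of 27 tested and higher in 5, with a median of -1.05, and 8 were higher without the 3 shallow libraries. This balance rests on KG-1: without that line 10 of 23 were higher and 10 lower. Against KG-1 alone 3 of 27 were higher and 21 lower (22.8% of all genes each). Against MOLM-13 these counts were 9 and 9 (27.7% and 23.6% of all genes). They were 5 and 9 against MOLM-14 (21% and 19.2%), and 10 and 9 against SKM-1 (26.2% and 27.4%). CD34, the marker of progenitors, was at 29.1, 23.6 and 82.8 in OCI-AML3 and at 27560, 28790 and 31070 in KG-1. The other lines were as low, with 1.91 to 5.004 in MOLM-13, 27.5 to 128 in MOLM-14 and 6.74 to 6.77 in SKM-1. The lower call of CD34 (log2 difference -1.22 ± 0.42 (SE), adjusted p = 0.0268) rests on KG-1, and without that line the difference was 1.54 (adjusted p = 0.0213). It was also lost without replicate 1 (-1.02) or replicate 2 (-0.88) of OCI-AML3. MSI2, an RNA-binding protein of blood stem cells, was 1 of 3 members that were lower and apart, at 670.3, 533 and 595 in OCI-AML3, against 1544 to 8438 (median 2713) in the 12 other libraries (log2 difference -2.38 ± 0.085 (SE), adjusted p = 1.4e-10). KIT, the receptor of stem cell factor, was at 0 to 3.83 in OCI-AML3, with MOLM-13 and MOLM-14 as low and 2630 to 2733 in SKM-1. GATA2 was at 35.4 to 98.2 in OCI-AML3 and 41.0 to 78.1 in MOLM-14, against 8667 to 10060 in KG-1 (-3.10). SOCS2 was at 36.7 to 96.3 in OCI-AML3, 42.5 to 77.3 in SKM-1 and 2765 to 4838 in MOLM-13 and MOLM-14 (-3.43). BEX3 was higher, at 421, 610.0 and 545 in OCI-AML3, with 338 to 436 in SKM-1 and at most 13.7 in the remaining lines.

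Myeloid transcription factors were split. Of 26 tested, 11 were higher, 6 of them apart, and 9 lower, 4 of them apart, with a median of 0.14. IRF8, which drives monocytes and dendritic cells, stood at 10530, 13410 and 10490 in OCI-AML3, against 51.4 to 6775 (median 2436) in the 12 other libraries (log2 difference 3.56 ± 0.10 (SE), adjusted p = 2.03e-11). RUNX2 stood at 5984, 5383 and 5882 in OCI-AML3, against 21.9 to 3237 (median 594) in the 12 other libraries (log2 difference 4.19 ± 0.19 (SE), adjusted p = 1.1e-09), while its relative RUNX1, a frequent target of mutations in AML, stood at 1315, 1487 and 1448 in OCI-AML3, against 3778 to 6210 (median 4454) in the 12 other libraries (log2 difference -1.67 ± 0.08 (SE), adjusted p = 2.1e-09). KLF4, CEBPD and ZEB2, all used in monocytic cells, were higher and apart, with differences of 2.50, 1.59 and 1.41. IRF4 was listed at 0 in all 3 OCI-AML3 libraries, against 0.227 to 370.4 in the others (log2 difference -4.92 ± 0.71 (SE), adjusted p = 6.99e-05). LYL1 and MYC were the other lower genes that stood apart.

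Surface and matrix genes of monocytes moved in both directions. Of 21 markers, 10 were higher and 5 lower, with 3 apart in each direction and a median of 0.17. VCAN, the proteoglycan versican of classical monocytes, stood at 1013, 1214 and 932 in OCI-AML3, against 0 to 76.8 (median 7.07) in the 12 other libraries (log2 difference 7.05 ± 0.65 (SE), adjusted p = 1.13e-06). CD36, a scavenger receptor, stood at 2532, 2280 and 2659 in OCI-AML3, against 12.7 to 629 (median 173) in the 12 other libraries (log2 difference 4.36 ± 0.22 (SE), adjusted p = 3.05e-09). The lysosomal CD68 stood at 2366, 3913 and 3005 in OCI-AML3, against 28.2 to 1493 (median 448) in the 12 other libraries (log2 difference 3.49 ± 0.20 (SE), adjusted p = 1.14e-08). Against these, ITGAM, the integrin chain CD11b, stood at 70.7, 15.01 and 65.2 in OCI-AML3, against 342 to 2177 (median 956) in the 12 other libraries (log2 difference -4.26 ± 0.32 (SE), adjusted p = 1.5e-07). ITGAX, which is CD11c, stood at 31.6, 46.4 and 32.0 in OCI-AML3, against 74.7 to 485 (median 271) in the 12 other libraries (log2 difference -2.50 ± 0.16 (SE), adjusted p = 2.95e-08). The costimulator CD86 stood at 30.9, 26.6 and 28.0 in OCI-AML3, against 38.8 to 451 (median 168) in the 12 other libraries (log2 difference -2.22 ± 0.21 (SE), adjusted p = 1.25e-06). These 6 genes are the members of the list that were called and apart, so that their groups do not overlap by choice. Summed over the list, the values were 15634.5 to 16902 in OCI-AML3, near MOLM-13 and MOLM-14 (13092 to 14627), below SKM-1 (28859 to 30376) and above KG-1 (6398 to 6795).

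**Figure D5:**
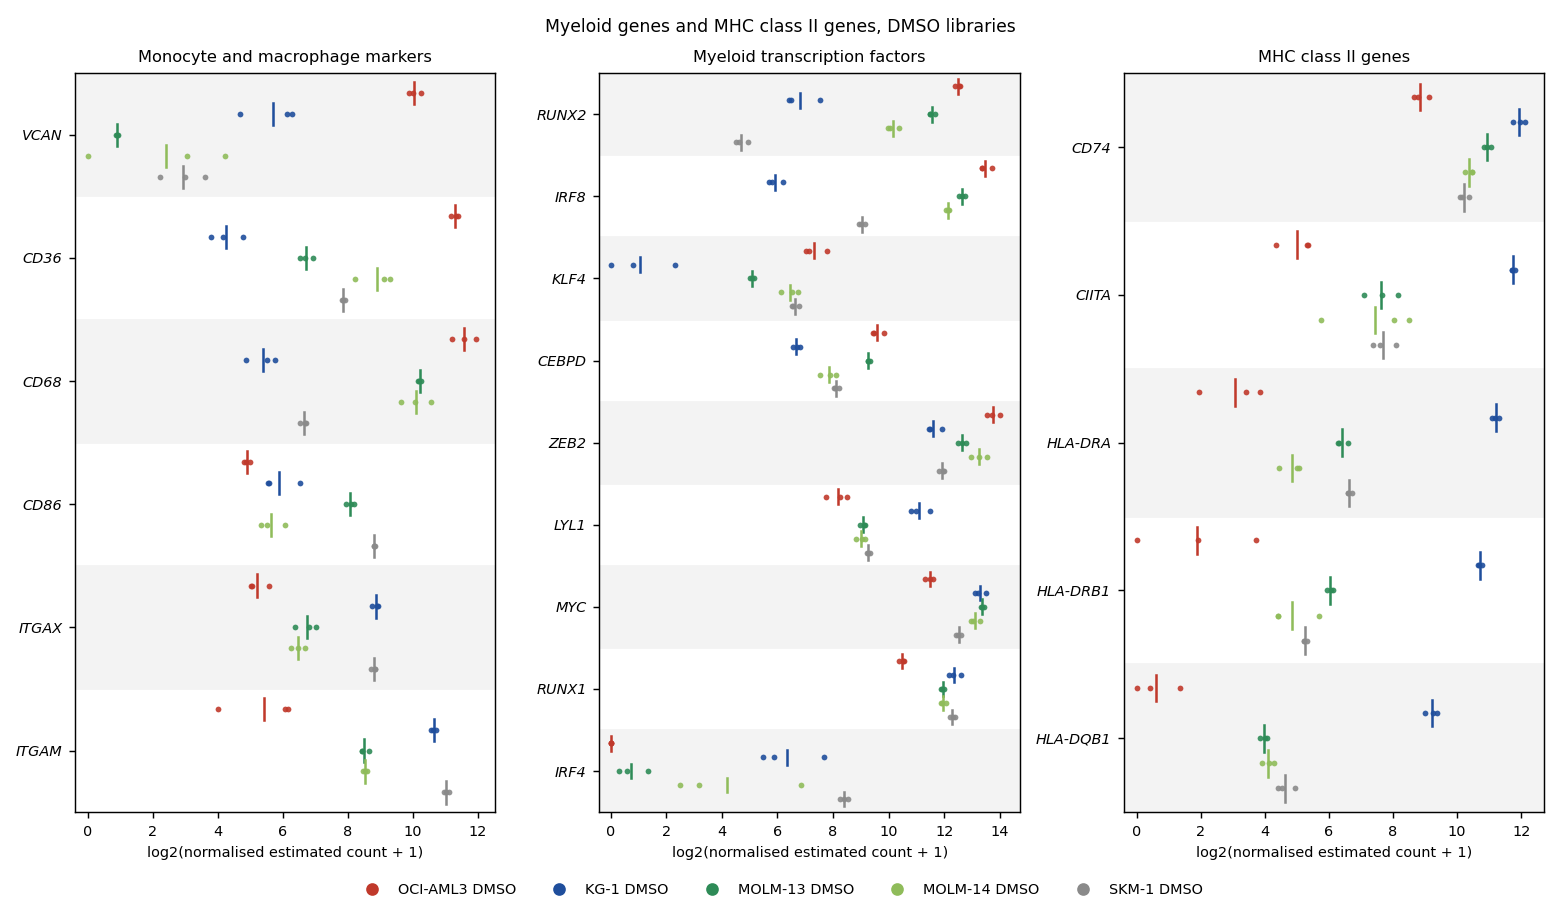
The monocyte markers, myeloid transcription factors and MHC class II genes described here in the 15 DMSO libraries, ordered by the log2 difference of OCI-AML3, with log2(normalised count + 1) on the horizontal axis and 3 points and a bar for the mean for each line, OCI-AML3 uppermost in each row. VCAN, CD36 and CD68 lie to the right and ITGAM, ITGAX and CD86 to the left of all other lines, and the 5 class II genes shown lie to the left.

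Granule genes showed 4 of 14 higher and 7 lower, with a median of -0.44, and 2 higher without 1 library of SKM-1, without replicate 1 or 3 of MOLM-13 or without replicate 1 or 3 of OCI-AML3. CTSG, the protease cathepsin G, was higher and apart, at 18190, 23590 and 20140 in OCI-AML3, against 45.6 to 11080 (median 894) in the 12 other libraries (log2 difference 4.90 ± 0.12 (SE), adjusted p = 3e-12), and MOLM-14 was next at 7522 to 11080. MPO, myeloperoxidase, was at 37.4, 326 and 13.7 in OCI-AML3, against 41440 to 42230 in SKM-1 and 123 to 611 in the other lines (log2 difference -3.94 ± 0.61 (SE), adjusted p = 0.00012). Its replicate 2, the shallow library, stands apart from the other OCI-AML3 libraries. BPI and PRG2, proteins of neutrophil and eosinophil granules, were near 0 in OCI-AML3, with differences of -5.56 and -5.53, as they were in KG-1 and, for PRG2, in MOLM-14.

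Markers of other cell types were mostly low. Of 16 erythroid genes 5 were tested, with 1 lower (HBD, -2.33) and none higher in limma at the adjusted threshold or at an unadjusted p below 0.05. HBB, HBA1, GATA1 and KLF1 were listed at 0 in OCI-AML3. In the other lines HBB was also at 0, HBA1 and KLF1 did not exceed 1.0 and 2.3, and GATA1 reached 46.0 in KG-1. Of the untested genes, GYPB and HBA2 were above 0 in OCI-AML3, at up to 5.9 and 0.6. Of 13 megakaryocyte genes 7 were tested, with 4 lower and 1 higher, and 2 lower without any 1 KG-1 library or the 3 shallow ones. NFE2 was lower and apart, at 96.8, 95.3 and 122 in OCI-AML3, against 310.5 to 699.6 (median 504) in the 12 other libraries (log2 difference -2.19 ± 0.11 (SE), adjusted p = 3.67e-09). VWF was at 0 to 0.874 in OCI-AML3 but near 0 in every line except KG-1, and ITGB3 was higher (1.18). Epithelial markers (2 of 7 higher, 2 lower) and fibroblast markers (3 of 6 higher, none lower in limma at the adjusted threshold or at an unadjusted p below 0.05) were at low values, with summed levels of 86.7 to 148 and 183 to 291 in OCI-AML3. EPCAM was listed at 0 in OCI-AML3 and found in SKM-1 at 494 to 540.1. CDH1 was at 25.9 to 59.7 in OCI-AML3, with a call as higher (2.49) that was lost without replicate 1 of OCI-AML3 (2.12). FAP, a membrane protease of activated fibroblasts, was at 74.1, 77.2 and 53.8 in OCI-AML3, against 0 to 22.8 (median 0.912) in the 12 other libraries, and COL1A2 at 52.7, 53.7 and 73.2 in OCI-AML3.

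Lymphoid genes were mixed, with 7 of 17 higher and 7 lower. Their median was -0.48 but 1.52 without the 3 shallow libraries and 1.09 without KG-1, with 3 lower without any 1 KG-1 library (4 without the 3 shallow ones). EBF1, the factor that commits cells to the B lineage, stood at 340.1, 618 and 364 in OCI-AML3, against 0 to 15.4 (median 1.14) in the 12 other libraries (log2 difference 7.25 ± 0.76 (SE), adjusted p = 3.62e-06), and TCF7, a T lineage factor, at 209, 288 and 198 in OCI-AML3, against 0 to 15.3 (median 4.91) in the 12 other libraries (log2 difference 5.54 ± 0.75 (SE), adjusted p = 3.98e-05). CD79A and CD3E, which define B and T cells, were listed at 0 in all 3 OCI-AML3 libraries, and CD247 was lower (-3.15). NCAM1, or CD56, an adhesion molecule of natural killer cells and of some AML, was at 4071, 5840 and 4222 in OCI-AML3 and as high in MOLM-14, at 4498, 6908 and 4351, against at most 733 in the other lines.

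Among 19 leukaemia surface antigens, 4 were higher and 8 lower, with a median of -0.74. CD33, the target of gemtuzumab, was at 866, 1099 and 1003 in OCI-AML3, between MOLM-13 (2103 to 2346) and KG-1 (569.8 to 609), and was not called (-0.087, adjusted p = 0.369). CD47, the signal that blocks phagocytosis, was lower and apart, at 1063, 1101 and 958 in OCI-AML3, against 1401 to 4685 (median 2695) in the 12 other libraries (log2 difference -1.33 ± 0.083 (SE), adjusted p = 2.42e-08), as was CD52, at 0 to 4.30 against 4.63 to 422 (log2 difference -3.91 ± 0.40 (SE), adjusted p = 3.18e-06). CD48 was near 0 in OCI-AML3 and in SKM-1. LILRB4, an inhibitory receptor of monocytic AML, was higher than the mean, at 770.5 to 879.7, with MOLM-13 above it at 1153 to 1262. CD38 was higher than the mean (1.12) with KG-1 far above at 4653 to 5190.

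Of 24 cytokine and growth factor receptors, 4 were higher and 9 lower, with a median of -0.13. CSF2RA, the specific chain of the receptor for GM-CSF, was lower and apart, at 22.3, 19.5 and 57.9 in OCI-AML3, against 106 to 852 (median 526) in the 12 other libraries (log2 difference -3.84 ± 0.27 (SE), adjusted p = 6.97e-08). FLT1 was at 0 to 20.8 in OCI-AML3, with MOLM-13 as low and 1381 to 1464 in SKM-1 (-4.65). IL1R1 was higher than the mean (2.19) with overlapping values in KG-1, at 31.6 to 134 in OCI-AML3 against 109 to 209 in KG-1, and its call was lost without replicate 2 of OCI-AML3 (1.62).

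Adhesion and homing genes moved in both directions. Of 25, 9 were higher and 8 lower, with a median of 0.23. ITGA1, a collagen-binding integrin chain, stood at 2751, 2538 and 2848 in OCI-AML3, against 0 to 120.5 (median 26.5) in the 12 other libraries (log2 difference 6.88 ± 0.70 (SE), adjusted p = 2.87e-06). CXCR4, the homing receptor for the marrow chemokine CXCL12, stood at 1726, 1483 and 1790 in OCI-AML3, against 139 to 1099 (median 674) in the 12 other libraries (log2 difference 1.65 ± 0.11 (SE), adjusted p = 6.52e-08). PECAM1 was lower and apart, at 364, 566 and 546 in OCI-AML3, against 1804 to 3974 (median 2439) in the 12 other libraries (log2 difference -2.40 ± 0.12 (SE), adjusted p = 2.8e-09), and so was ITGAL, a chain of LFA-1, at 1777, 2686 and 2243 in OCI-AML3, against 3173 to 16700 (median 10270) in the 12 other libraries (log2 difference -1.91 ± 0.093 (SE), adjusted p = 2.6e-09).

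Output genes of the MAPK pathway showed 7 of 17 higher and 5 lower. Their median was 0.61, but 0.054 without the 3 shallow libraries, 0.078 without KG-1 and 0.17 under quantile normalization. PHLDA1 stood at 661, 618 and 627 in OCI-AML3, against 10.3 to 81.9 (median 36.5) in the 12 other libraries (log2 difference 4.27 ± 0.15 (SE), adjusted p = 8.31e-11), and CCND1, cyclin D1, at 1074, 1051 and 1145 in OCI-AML3, against 2.70 to 614 (median 158) in the 12 other libraries (log2 difference 3.68 ± 0.17 (SE), adjusted p = 1.88e-09). SPRY2 was higher (1.33) and its relative SPRY1 lower, at 8.29, 7.08 and 6.63 in OCI-AML3, against 16.4 to 567 (median 160.2) in the 12 other libraries (log2 difference -3.99 ± 0.16 (SE), adjusted p = 3.74e-10), both apart. IER3, an early response gene, was also lower and apart (-2.45).

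Of 15 BCL2 family genes, 5 were higher and 6 lower, with a median of -0.14, and 3 were higher without replicate 2 of OCI-AML3. BCL2L11, which encodes the cell death inducer BIM, stood at 3088, 3343 and 2740 in OCI-AML3, against 89.5 to 1411 (median 675) in the 12 other libraries (log2 difference 2.52 ± 0.32 (SE), adjusted p = 2.09e-05). BCL2, the target of venetoclax, was at 5341 to 7246 in OCI-AML3 within a range of 2222 to 10400 (0.49, adjusted p = 0.00217). BIK was lower and apart, at 0 to 2.80 against 4.01 to 205 (-4.33), as was the survival gene BCL2A1 (-3.51), and HRK was near 0 in OCI-AML3 and KG-1. Of 24 p53 targets, 8 were higher and 6 lower, with a median of 0.053. TP53I3 was higher and apart, at 64.9, 53.6 and 55.2 in OCI-AML3, against 0 to 22.4 (median 3.37) in the 12 other libraries (log2 difference 3.83 ± 0.71 (SE), adjusted p = 0.000546). PHLDA3 was higher (2.50). ZMAT3 was lower and apart, at 384, 454 and 359.8 in OCI-AML3, against 682 to 1536 (median 1086) in the 12 other libraries (log2 difference -1.36 ± 0.11 (SE), adjusted p = 2.55e-07).

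Genes of decitabine uptake and metabolism were lower in 9 and higher in 5 of 17, with a median of -0.35. DCK, the kinase that activates decitabine, was at 1429, 1240 and 1126 in OCI-AML3, against 1211 to 2842 (median 1783) in the 12 other libraries (log2 difference -0.49 ± 0.10 (SE), adjusted p = 0.00163) and overlapped MOLM-13 and MOLM-14. CDA, which deaminates and inactivates decitabine, was at 39.1, 26.9 and 56.7 in OCI-AML3 and 54.4, 56.8 and 56.8 in SKM-1, against at most 2.2 in the other 3 lines (log2 difference 3.22 ± 0.41 (SE), adjusted p = 2.2e-05). SAMHD1, which removes the phosphates from the active drug, was higher and apart, at 14170, 9814 and 9718 in OCI-AML3, against 316 to 7776 (median 3334) in the 12 other libraries (log2 difference 2.21 ± 0.12 (SE), adjusted p = 9.85e-09). NT5C, a nucleotidase, was higher and apart (1.14). SLC29A2, a nucleoside transporter, was lower and apart, at 7.49, 0 and 6.46 in OCI-AML3, against 50.7 to 312 (median 181) in the 12 other libraries (log2 difference -5.22 ± 0.47 (SE), adjusted p = 8.3e-07).

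Imprinted genes are known to be copied from 1 parental allele in at least some tissues. They were lower in 9 and higher in 1 of 18, with a median of -0.17, and 4 were higher without the 3 shallow libraries. Besides SNRPN, MEST was lower and apart, at 35.4, 16.9 and 30 in OCI-AML3, against 253 to 1325 (median 771) in the 12 other libraries (log2 difference -4.69 ± 0.22 (SE), adjusted p = 1.46e-09), and so was GRB10 at 352, 469 and 252 in OCI-AML3, against 629 to 2135 (median 1560) in the 12 other libraries (log2 difference -2.05 ± 0.19 (SE), adjusted p = 1.32e-06). Of 40 cancer-testis and germline genes 11 were tested, with 1 higher and 3 lower, and 5 lower without the 3 shallow libraries, without replicate 2 of MOLM-14 or without replicate 3 of OCI-AML3. XAGE1A, which has near-identical copies, was at 249 to 453 in OCI-AML3 and as high in MOLM-13 and MOLM-14. TEX15 was lower than the mean (-3.08), a call that was lost without replicate 2 of OCI-AML3 (-2.48). Of 13 retinoic acid genes 5 were higher and 6 lower, with a median of -0.29. STRA6, a retinol receptor, was higher, at 31.4, 83.4 and 43.2 in OCI-AML3, against 0 to 8.95 (median 1.03) in the 12 other libraries (log2 difference 4.46 ± 0.66 (SE), adjusted p = 8.16e-05). It passed the filter on low values through OCI-AML3 alone, so that its higher values had to follow. DHRS3, which reduces retinal, was lower and apart, at 2.49, 0 and 2.52 in OCI-AML3, against 39.2 to 232 (median 172) in the 12 other libraries (log2 difference -5.61 ± 0.40 (SE), adjusted p = 9.36e-08). RDH10, which oxidises retinol, was lower and apart too, at 204, 184 and 196 in OCI-AML3, against 492 to 1232 (median 590.0) in the 12 other libraries (log2 difference -1.87 ± 0.09 (SE), adjusted p = 2.07e-09).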

How the data were processed

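RNA of 5 AML lines was measured by RNA sequencing. The deposited values are a signal that the authors made from estimated counts per gene by dividing through normalisation factors of DESeq2, per the name of the authors' deposited table. The submitters' processing notes name Salmon 1.2.1, STAR, featureCounts, DESeq2, limma and the build hg38, with no role or order. The strand setting and annotation release are not given in the sources used here. Low values were whole multiples of the worth of 1 read for 54.9% to 70.6% of genes per library (tolerance 0.02), which is too few to rebuild whole reads, so counts were not modelled.

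For OCI-AML3, KG-1 and MOLM-14, columns were tied to samples by line, treatment letter and replicate number. MOLM-14 is not named in the series' design text. A further 12 columns carry names of no labelled sample and were not used, and 12 libraries labelled OCI-AML2 or THP-1 were not analysed here. Gene types came from GENCODE 29, matched for 58064 of 60240 identifiers, and promoter sequences from RefSeq (GRCh38.p14).

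Genes that reached 10 in 3 or more of the 15 DMSO libraries were tested with limma 3.58.1 (trend and robust, statmod 1.5.0, R 4.3.3) on log2(value + 1), with 5 line means and 10 residual degrees of freedom. The fit was tested on simulated data. Every adjusted p comes from limma with Benjamini-Hochberg adjustment over all genes tested. Decitabine values came from the same fit on all 30 libraries. Of protein-coding genes that were called, apart and at a mean of at least 100 in OCI-AML3 (for lower genes, in each other line), the 15 with the widest gap to the nearest line mean were named in each direction. From 29 gene lists the called members with the largest differences were named, with those of the NPM1, DNMT3A, HOX and CD34 question. The HOXB4, RSAD2, NCAM1, CD33, FOXP1 and similar values of single lines were chosen after they were seen. Some list members are not reported here by name. The members and lists were chosen with earlier results of these data known. Alternatives were other pseudocounts, filters, scalings, library weights, lines in the mean, all 30 libraries, each library left out, and a replicate block.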

Additional observations from a re-analysis of the deposited data

How the results depend on the processing

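Over all alternatives, 4151 to 6312 genes were higher in OCI-AML3 and 4164 to 5619 lower. Leaving out each library in turn gave 4421 to 5952 higher and 4390 to 5343 lower genes, 1559 to 1764 higher and 1135 to 1405 lower genes that were apart, and 131 to 151 higher and 153 to 173 lower list members. Over all lines, same-numbered deviations correlated at -0.0435 to 0.146 (3 of 30 pairs over 0.1) and differently numbered ones at -0.124 to 0.0578 (0 of 60). Among KG-1, MOLM-14 and OCI-AML3, same-numbered pairs ran from 0.0549 to 0.146 and differently numbered ones from -0.124 to 0.0486. Replicate numbers thus weakly linked the libraries of these lines, which the main fit did not model, and the source of this link was not tested. The replicate block gave 5496 higher and 5057 lower genes. With fewer libraries to stand apart from, the counts of apart genes grew by construction. They were 2250 higher and 1791 lower without the 3 shallow libraries. Without KG-1 they were 2215 higher and 1893 lower, and without MOLM-14 2292 higher and 1817 lower. Against KG-1 and MOLM-14 alone they were 2482 higher and 1834 lower. Against MOLM-13 and SKM-1 alone they were 4082 higher and 3469 lower. Scaling to the total without mitochondrial genes moved the median difference of all genes to 0.18 and the higher share of calls to 59.9%, against 52.4%. The median CG count in the 250 bases before the start was 18 for higher and 20 for lower apart genes. Some single genes changed sign with the lines in the mean, as their values by line show. Against KG-1 and MOLM-14 alone these were MEIS1 (-1.04), CD33 (0.70) and RSAD2 (-1.43). Against MOLM-13 and SKM-1 alone they were CD34 (2.72), HOXA3 (1.31), HOXA5 (0.40), HOXA6 (0.40) and HOXC4 (0.44). Without 1 line they were CD34 (1.54) and IFITM2 (0.27) for KG-1, CD33 (0.27) for MOLM-13 and MEIS1 (-0.89) for SKM-1. Depth limits values under about 10 in the shallow libraries, where 1 read is worth that much.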
